A study of Mus musculus with 8 samples.

Results

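The vascular endothelial nuclei described here are cluster 9 of the 13 clusters into which the deposited single-nucleus data are divided. They were taken as 2 of the 26 columns of mean expression, 1 from a pool of control livers and 1 from a pool of livers with a myeloid deletion of Tgfbr1, with all 22578 genes of the table. Of these genes, 12896 were above 0 in the control column and 13796 in the MKO column. The control mice were flox/flox for Tgfbr1. The MKO mice carried the same floxed alleles together with LysMcre, a Cre recombinase expressed from the Lyz2 locus, which is active in macrophages, monocytes and neutrophils. All mice had been on a MASH diet, a model of metabolic dysfunction-associated steatohepatitis, for 30 weeks, so there is no group on a normal diet and none without floxed alleles. The sources used here give no age, sex or strain. Nuclei were isolated from frozen livers, stained with propidium iodide, sorted and run on the droplet-based Chromium system, with the livers of 3 mice pooled for each genotype. Whole-liver RNA was also sequenced, in 3 libraries per genotype. With 1 pool per genotype, differences between the pools' nuclei have no replicate check and no p-value. The whole-liver libraries do have replicates.

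The liver holds several kinds of endothelium. Sinusoids are lined by fenestrated cells rich in scavenger receptors, whereas portal veins, hepatic arteries and central veins have a continuous endothelium that stores von Willebrand factor, rests on a basement membrane and, in the central veins, secretes Wnt proteins and R-spondin that zone the neighbouring hepatocytes. Lymphatic endothelium, which drains the portal tracts, is a separate lineage with its own transcription factor, Prox1. Endothelial cells read TGF-beta and BMP signals through type I and type II receptors and Smad proteins, but they are not a target of the myeloid Cre.

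All levels of nuclei are means on a linear scale in which each column sums to 10000. They compare the same gene between clusters or pools, and not different genes with each other. A gene was compared where the larger of its values in the 2 pools was at least 1.70 (the 90th percentile of such values above 0 in cluster 9), and it was counted as different at 2-fold or more on a log2 scale with a pseudocount of 0.17.

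The 5 markers that define the cluster were higher in cluster 9 than in every other cluster, in both pools. Vwf, which encodes von Willebrand factor (mm10, chromosome 6, 125546774 to 125686679, + strand), was at 10.7 in control nuclei and 9.08 in MKO nuclei, and no other cluster exceeded 0.26 or 0.164. Mecom, a zinc finger transcription factor gene (chromosome 3, 29951296 to 30548008, - strand), was at 30.9 and 23.3, against at most 3.31 and 1.36 elsewhere. Cdh13, which encodes the membrane-anchored cadherin T-cadherin (chromosome 8, 118283733 to 119324921, + strand), was at 21.4 and 18.1.
Jam2, a junctional adhesion molecule (chromosome 16, 84774123 to 84825928, + strand), had the smallest distance to its runner-up, at 12.6 and 13.3 against 3.43 and 4.73 in cluster 4. Col8a1, a short-chain collagen of vessel walls (chromosome 16, 57624258 to 57754737, - strand), was at 10.3 and 5.05 against at most 1.10 and 0.768, in cluster 5. These markers were chosen for the cluster, so their levels describe it and are no test of its label. Col8a1 was the marker that differed most between the pools.

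**Figure D1:**
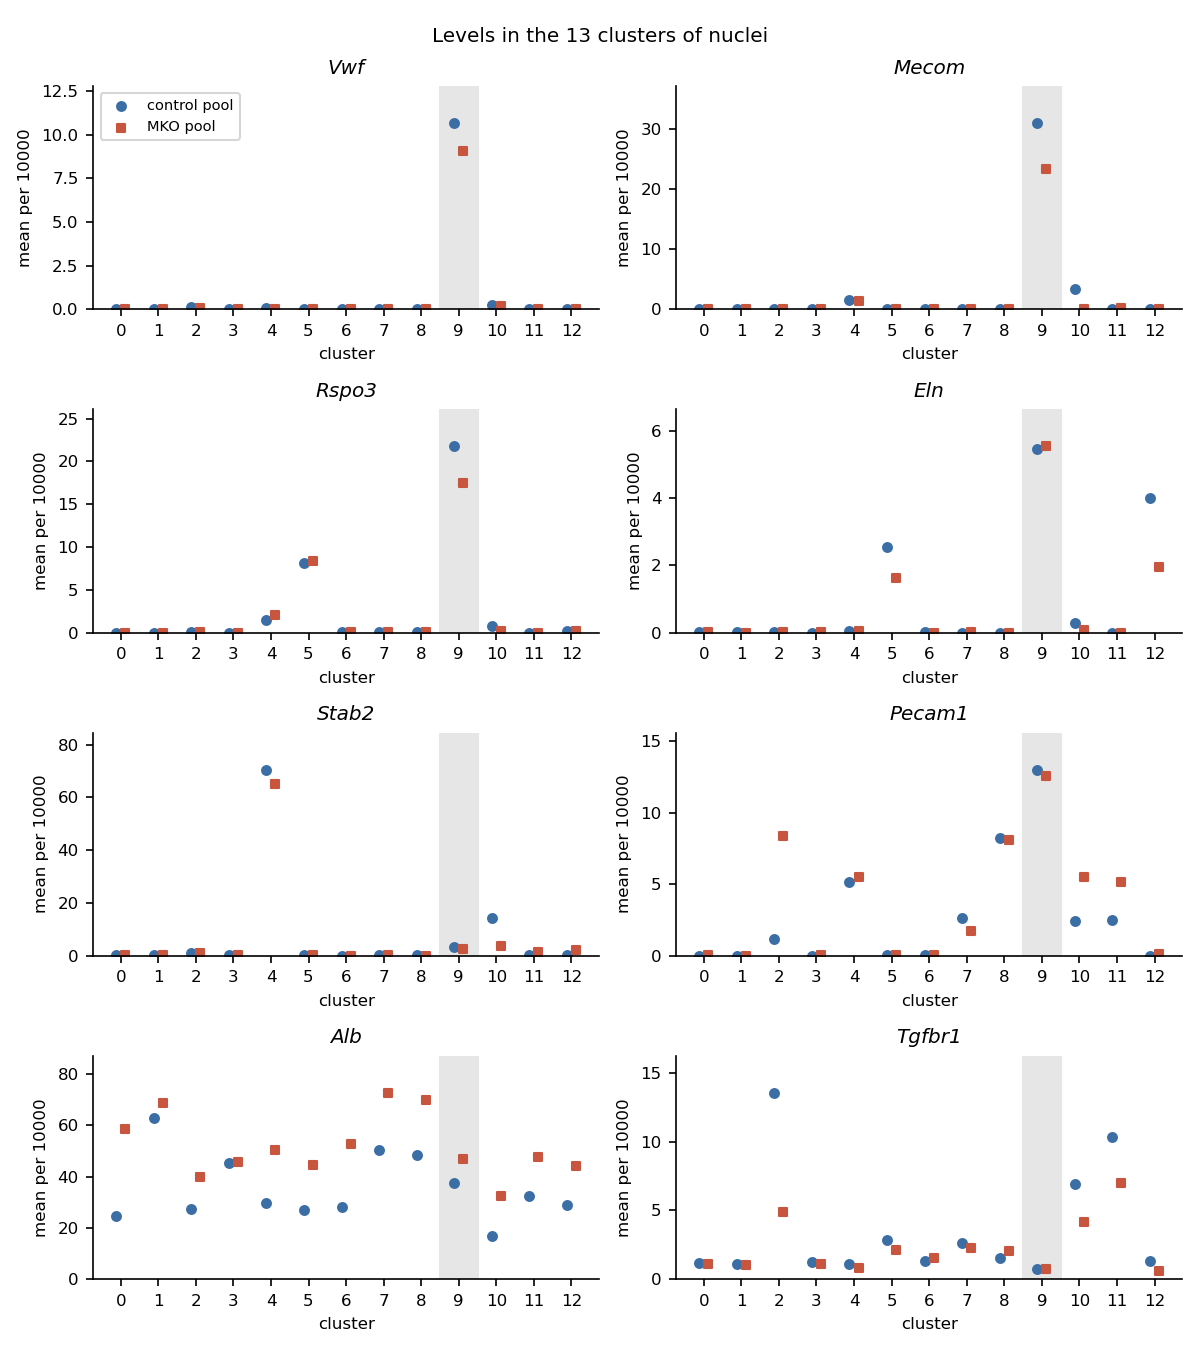
Mean level per 10000 of 8 genes (vertical axes, linear, each with its own scale) in the 13 clusters (horizontal axes), with circles for the control pool, squares for the MKO pool and a grey band over cluster 9. Vwf, Mecom and Rspo3 peak in cluster 9, Stab2 peaks in cluster 4 at 70.5 and 65.2, Alb is present in every cluster, and Tgfbr1 is low in cluster 9 in both pools.

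Genes that all endothelium shares were present as well. The summed level of 28 such genes was 216 in control nuclei and 209 in MKO nuclei, near the 196 and 198 of cluster 4, the sinusoidal endothelial cluster. Of the 22 that could be compared between the pools, 0 were past 2-fold in either direction. Of all 1496 genes compared in cluster 9, 2.74% were past 2-fold higher and 1.74% lower in the MKO pool. A list this short can reach 0 at those shares. Pecam1, an adhesion molecule of endothelial junctions and of some leukocytes, was at 12.98 and 12.6. Cdh5, the endothelial cadherin, was at 3.30 and 3.13, and Erg, an endothelial ETS factor, at 4.48 and 5.29. Over 4554 genes, the log2 level in cluster 9 correlated with that in cluster 4 at r = 0.858 in the control pool and r = 0.851 in the MKO pool. The next most alike was cluster 5, which carries the stellate cell genes, at 0.629 and 0.631. These correlations run across genes, which are not independent replicates, and all clusters of a pool share 1 library.

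The 30 leading genes, ranked by their enrichment over the mean of the other 12 clusters in the weaker of both pools, were all highest in cluster 9 in both pools. They describe the cluster and are not a test of it, since the nuclei were clustered on such genes. Several act in the vessel wall or on neighbouring cells. Edn1 encodes endothelin-1, a vasoconstrictor peptide, and stood at 3.45 and 2.90, with no other cluster above 0.0467. Bmx, a non-receptor tyrosine kinase of arterial endothelium, stood at 3.14 and 2.65, with no other cluster above 0.02. Nrg1, a ligand of ErbB receptors, was at 10.4 and 10.7. Rspo3, the R-spondin that amplifies Wnt signals to hepatocytes (chromosome 10, 29452416 to 29535867, - strand), was at 21.7 and 17.5, and cluster 5 came next at 8.09 and 8.38.
Others were Tek, the receptor for angiopoietins, at 12.1 and 8.81, Adgrg6, an adhesion G protein-coupled receptor, at 12.4 and 6.65, and Fabp4, a fatty acid binding protein, at 4.13 and 3.25. The rest of the ranking held Dnm3, Thsd7a, Nuak1, Myrip, Sncaip, Mctp1, Ldb2, Samd12, Pgm5, Acer2, Mgp, Zfp521, Fbln2, Ntn4, Csgalnact1, Fndc1, Plcb4 and Cavin2.

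Promoters were searched for letters of motifs that endothelial transcription factors are known to bind, because these genes peak in the same nuclei. RefSeq promoters of 300 bases (GRCm38.p6, the build of mm10; 250 before and 50 after the start) were matched for 18 of the 30 leading genes, 20 promoters in all. The SOX letters AACAAT, on either strand, were in 4 of these 20 (20%), those of Dnm3, Tek, Fndc1 and Cavin2, against 10.7% of all 32851 promoters and 5 of 30 promoters (16.7%) of the genes that lead cluster 4. The ETS letters AGGAAGT were in 1 (5%, Cavin2) against 9.35% of all promoters, the GATA letters AGATAA in 2 (10%, Edn1 and Tek) against 11.2%, and the SMAD letters GTCTAGAC in 0 against 0.213%. With 20 promoters these shares rest on 0 to 4 promoters each. A match is a description and not evidence of binding. Of the SOX factors of endothelium, Sox17 was at 0.657 and 1.14, Sox18 at 0.518 and 0.598 and Sox7 at 0.277 and 0.348 in cluster 9, all under the level needed for comparison. The 250 bases before the start are shown for 2 of the 4 promoters with the SOX letters, Dnm3 as a gene near 0 in cluster 4 (0.0627 and 0.071) and Tek as a gene that cluster 4 shares (8.82 and 7.18), 5′ to 3′ on the strand of the gene, with the matched letters in capitals.
Dnm3, chr1:162478035-162478284, - strand: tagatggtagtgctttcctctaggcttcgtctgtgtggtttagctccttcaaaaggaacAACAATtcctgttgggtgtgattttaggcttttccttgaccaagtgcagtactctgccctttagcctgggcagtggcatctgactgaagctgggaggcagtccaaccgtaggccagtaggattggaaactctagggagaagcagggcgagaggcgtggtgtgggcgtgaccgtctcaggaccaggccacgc
Tek, chr4:94739039-94739288, + strand: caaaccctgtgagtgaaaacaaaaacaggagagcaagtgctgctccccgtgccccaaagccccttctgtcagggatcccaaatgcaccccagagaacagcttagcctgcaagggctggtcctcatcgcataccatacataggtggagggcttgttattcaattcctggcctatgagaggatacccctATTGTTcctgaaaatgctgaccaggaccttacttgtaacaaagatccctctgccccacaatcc

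Cluster 9 and the sinusoidal cluster 4 differed in many genes in the same direction in both pools. Of 1743 genes compared, 157 were at least 2-fold higher in cluster 9 in both pools (9.01%) and 149 were at least 2-fold higher in cluster 4 in both (8.55%). A further 23 were past 2-fold in favour of cluster 9 in the control pool alone and 44 in the MKO pool alone, and 1 gene lay on opposite sides in the 2 pools. Of the leading genes, 24 of 30 were among the 157.
Thsd7a, a thrombospondin-domain membrane protein, was at 19.1 and 11.9 in cluster 9 and at 0.0757 and 0.0141 in cluster 4. Nrg1 was at 0.0718 and 0.0374 in cluster 4, and Adgrg6 at 0.0504 and 0.0795. Others of the 12 genes with the highest ratio over cluster 4, ranked by the smaller ratio of both pools, were Vwf, Pcdh7, Col8a1, Dnm3, Eln, Rbms3, Gpm6a, Nuak1 and Fmo2. Rbms3, Gpm6a and Fmo2 were higher in cluster 5 or 12 than in cluster 9, so they set it apart from sinusoidal nuclei but not from the rest of the liver.

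On the other side stood the genes of the fenestrated, scavenging endothelium. Stab2, the hyaluronan scavenger receptor (chromosome 10, 86841198 to 87008025, - strand), was at 3.38 and 2.65 in cluster 9 against 70.5 and 65.2 in cluster 4. Adam23, a disintegrin-type membrane protein, was at 1.25 and 2.06 against 29.7 and 32.3. Dnase1l3, a secreted nuclease, was at 0.583 and 0.441 against 7.05 and 9.18.
Bmp2, the ligand by which endothelium induces hepatocyte hepcidin, was at 0.506 and 0.432 against 5.28 and 5.84. Clec4g, a C-type lectin, was at 0.725 and 0.822 against 6.77 and 11.6, and Fcgr2b, an inhibitory IgG receptor, at 0.995 and 0.852 against 8.72 and 10.5. By the same ranking, the remaining genes of the 12 with the lowest ratio were Anapc15, Gatm, Slc9a9, Plet1os, Hgf, which encodes hepatocyte growth factor, and Gna14. Of 23 sinusoidal list members compared, 15 were higher in cluster 4 in both pools and 0 in cluster 9. Over all 1743 genes compared, the shares were 8.55% and 9.01%. The sinusoidal list summed to 69.5 and 65.4 in cluster 9 and to 264 and 263 in cluster 4.

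**Figure D2:**
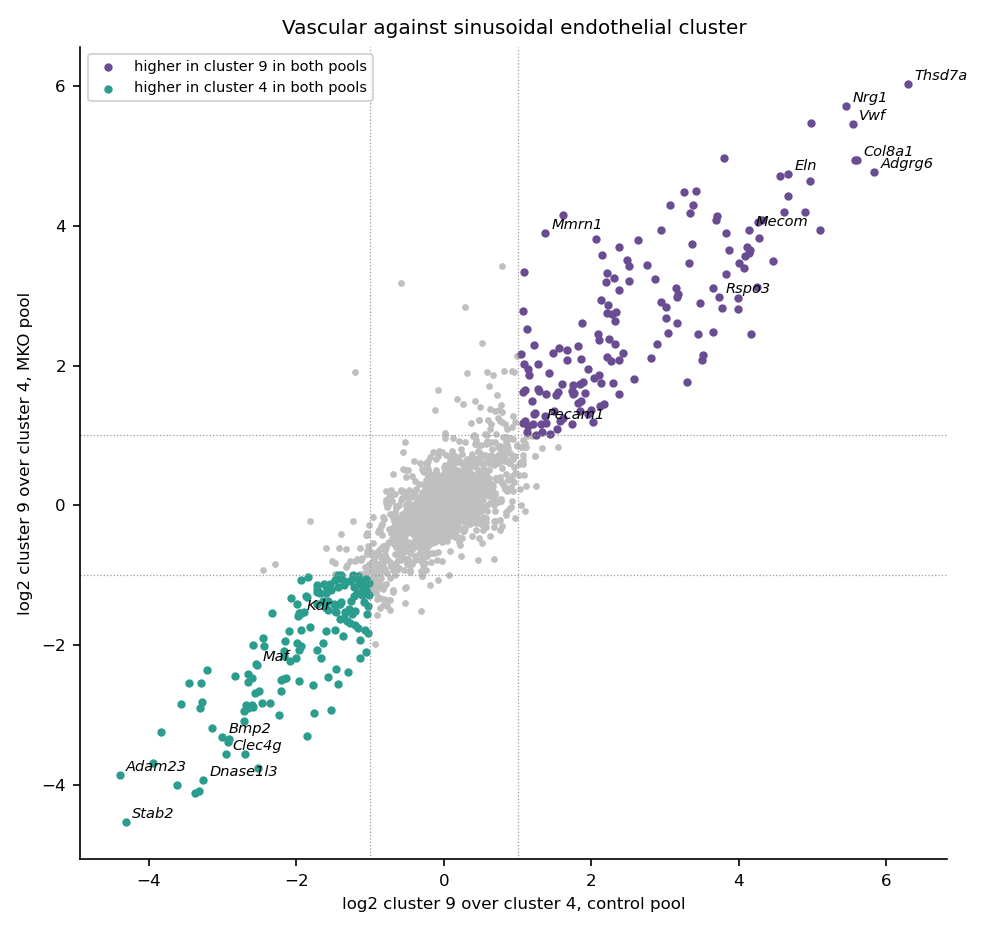
Log2 ratio of cluster 9 over cluster 4, with control nuclei on the horizontal and MKO nuclei on the vertical axis, for the 1743 genes compared, with dotted lines at 2-fold. The 157 genes higher in cluster 9 in both pools are in purple and the 149 higher in cluster 4 in both are in green, and 1 gene lies past 2-fold on opposite sides in the 2 pools.

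Genes of portal and arterial vessels and genes of central veins were both present in the means of cluster 9. Whether the same or different nuclei carried them cannot be told apart in a cluster mean. Of 15 arterial and portal genes compared with cluster 4, 10 were higher in cluster 9 in both pools and 1 in cluster 4. Of 18 venous and central genes, 8 were higher in cluster 9 and 2 in cluster 4. Over all 1743 genes compared, the shares were 9.01% and 8.55%. Eln, the elastin gene, was at 5.45 and 5.53, Mgp, an inhibitor of vessel calcification, at 2.88 and 2.15, and Fbln2 and Fbln5, fibulins of elastic fibres, at 2.76 and 2.23 and at 2.01 and 1.33. Vegfc, a growth factor for lymphatic vessels, was at 6.02 and 3.52 and Jag1, a Notch ligand, at 2.43 and 1.64, against at most 0.194 in cluster 4 for either gene.
Among the venous genes, Wnt9b, a Wnt of central vein endothelium, was at 1.41 and 2.04, and the highest value in any other cluster was 0.166 and 0.253. Selp, the P-selectin that captures leukocytes, was at 2.61 and 1.298, and Vcam1, another leukocyte adhesion molecule, at 1.90 and 3.68. Nr2f2, the venous transcription factor COUP-TFII, was at 5.32 and 7.64. Between the pools, 0 of 15 compared arterial and portal genes and 0 of 15 venous and central genes were past 2-fold. Lists this short can reach 0 at the shares over all 1496 genes compared, 2.74% higher and 1.74% lower. The medians of the log2 ratio of MKO over control were -0.29 for the arterial and portal list and -0.12 for the venous and central list.

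Most genes of the cluster differed little between the pools. Of 1496 genes compared, 41 were at least 2-fold higher in the MKO pool (2.74%) and 26 at least 2-fold lower (1.74%). The median log2 ratio was -0.04, and the control and MKO columns correlated at r = 0.942 across the 4554 genes above. Over the 1496 genes compared in cluster 9, r was lower, at 0.846. In cluster 4 the counts were 34 higher and 6 lower of 1796. In cluster 8, which carries B cell genes and whose smallest non-zero values (0.0136 and 0.0115) were close to those of cluster 9 (0.0123 and 0.00784) and far above those of cluster 4 (0.00121 and 0.00105), 24 were higher and 30 lower of 1429. A larger smallest value means that 1 molecule moves the mean more.
Most of the differing genes were low: 35 of the 41 higher genes were under 1.70 in the control pool, and 23 of the 26 lower genes were under it in the MKO pool. Among the 310 genes with a larger value of at least 5, 3 were higher and 3 lower. Just inside the threshold lay Fth1 (log2 ratio 1.02) and Col8a1 (-1.01), and just outside it Rpl13 (0.99) and Col5a2 (-0.99).

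**Figure D3:**
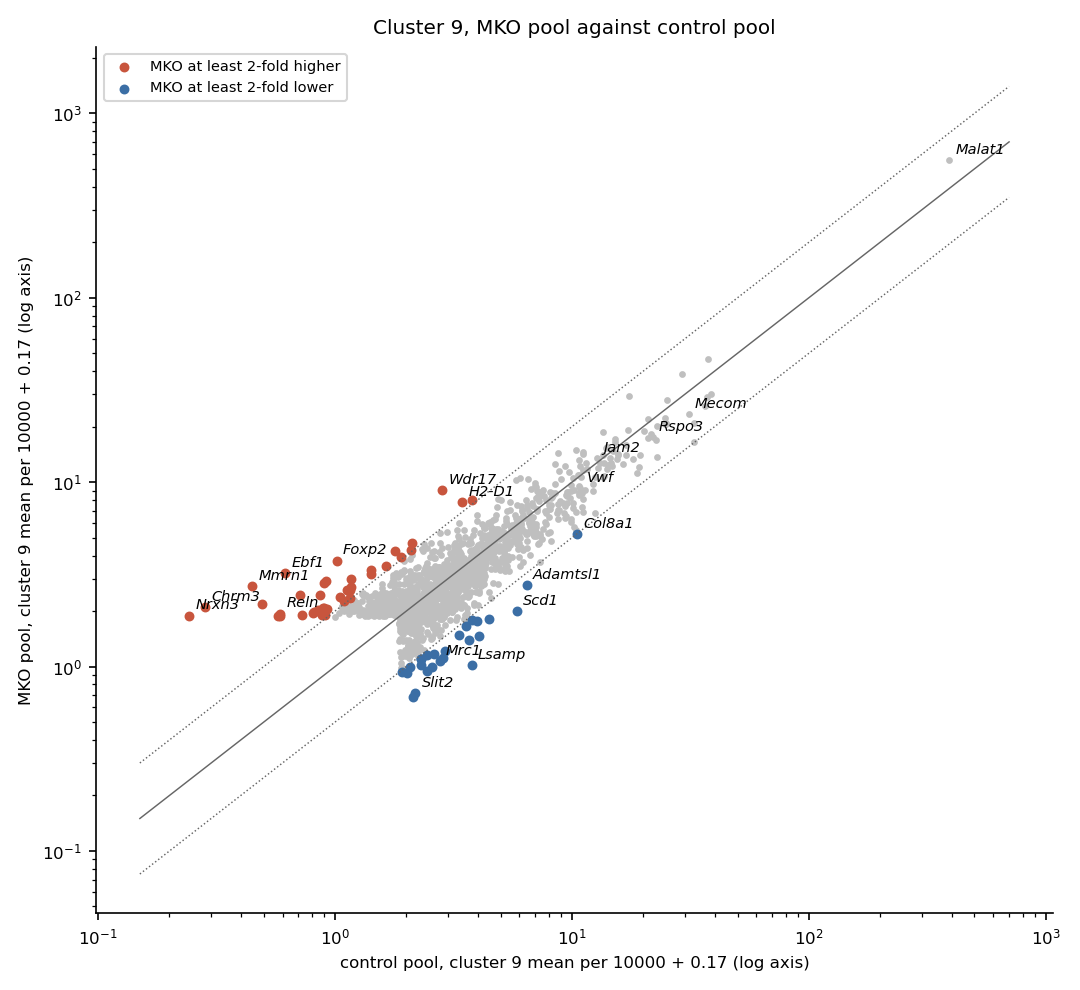
Level in the MKO pool (vertical) against the control pool (horizontal) in cluster 9, both per 10000 plus 0.17 on log axes, for the 1496 genes compared. The solid line marks equal levels and the dotted lines 2-fold; the 41 higher genes are in red and the 26 lower in blue, and nearly all of them lie at the low end.

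The genes that define the cluster were on balance somewhat lower in the MKO pool. Of the 30 leading genes, 25 had the lower value in the MKO pool, 1 was past 2-fold lower (Col8a1) and 0 were past 2-fold higher. Their median log2 ratio was -0.32, beside -0.04 for all genes compared. Adgrg6, from 12.4 to 6.65, came closest to Col8a1 (log2 ratio -0.88). The exceptions were Jam2, Nrg1, Pgm5, Acer2 and Cavin2, with values 1.03 to 1.38 times those of the control pool. Over the same pools the summed level of hepatocyte genes in cluster 9 was higher in the MKO pool, at 144 against 192, and Malat1, a nuclear long non-coding RNA, was at 390 against 559. Each column sums to 10000. A rescaling without hepatocyte genes was run for the counts past 2-fold and is given below. The part of hepatocyte genes or Malat1 in the lower median of the leading genes was not tested.

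Of 15 genes of lymphatic endothelium, 5 could be compared between the pools. Of these, Mmrn1 and Reln were past 2-fold higher in the MKO pool, beside 2.74% of all genes compared. Mmrn1, which encodes multimerin 1, a protein of platelets and lymphatic endothelium (chromosome 6, 60924976 to 60989378, + strand), was at 0.278 in control nuclei and 2.57 in MKO nuclei (log2 ratio 2.61). No other cluster exceeded 0.00281 in the control pool or 0.0585 in the MKO pool. Reln, which encodes the secreted glycoprotein reelin, was at 0.418 and 1.77 (1.72).
Reln is also a gene of stellate cells, at 55.3 and 43.9 in cluster 5, and the 20 genes of the stellate list summed to 2.87 and 3.87 in cluster 9. Both genes could be compared only through their value in the MKO pool. Below the level for comparison, Prox1, the lymphatic master regulator, was at 1.09 and 1.64, against 5.22 and 4.49 in hepatocyte cluster 0 and 9.46 and 4.60 in cluster 6. Ccl21a, a lymphatic chemokine, was at 0.0992 and 0.664, and Sema3a, a guidance ligand, at 0.184 and 0.917. Tbx1, a transcription factor of lymphatic vessels, was at 0 and 0.592, and Pdpn, podoplanin, at 0 and 0.266.
In all, 13 of the 15 lymphatic genes had the larger value in the MKO pool, beside 52.5% of all genes above 0 in either pool. They summed to 10.8 in control and 18.9 in MKO nuclei. The exceptions were Nrp2, a co-receptor at 3.45 and 2.81 that sinusoidal nuclei also carry, and Ptx3, at 0.0744 and 0. A mean over a cluster cannot tell more nuclei of a kind from more RNA in each, and the sources used here do not state how many nuclei each cluster holds.

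Many of the other genes higher in the MKO pool of cluster 9 peak in a different cluster. Wdr17, a WD repeat protein gene, had the largest value among them, at 2.66 and 8.92 (log2 ratio 1.68), and was higher in cluster 12, which carries the mesothelial genes, at 18.6 and 30.4. Ebf1, a transcription factor of B cells and mesenchyme, was at 0.444 and 3.05, and at 71.6 and 64.1 in B lineage cluster 8; 8 of the 20 lymphocyte genes were at 0 in both pools of cluster 9, and all 20 summed to 0.936 and 3.52, of which Ebf1 made the larger share in the MKO pool.
Nrxn3, a synaptic adhesion gene, at 0.0722 and 1.72, was higher in stellate nuclei (13.7 and 11.3), and Chrm3, a muscarinic receptor, at 0.113 and 1.94, and Glis3, a zinc finger factor, at 0.322 and 2.01, were higher in cluster 6, which carries bile duct genes. Foxp2, a forkhead factor, was at 0.846 and 3.58, and reached 6.66 and 3.22 in the highest other cluster of each pool. Pkhd1l1, a large membrane protein, was at 0.542 and 2.28, against 17.7 and 14.1 in cluster 12. Tll1, a tolloid-like metalloprotease, was at 1.25 and 3.17, with no other cluster above 0.896. Dennd4a, Stt3b, Tmed5 and Klhl4 had log2 ratios from 1.29 to 1.68. Whether RNA of other cells contributed to these values was not tested.

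A further set was higher in nearly every cluster. Of the 37 higher genes with an official-looking symbol, 13 had a positive ratio in at least 11 of the other 12 clusters. H2-D1, a class I antigen-presenting molecule, was at 3.27 and 7.60 in cluster 9 and at 2.67 and 6.96 in cluster 4, and its log2 ratio in the other clusters ran from 0.75 to 2.06. Hpx, the hepatocyte gene for haemopexin, was at 3.61 and 7.87, with a median log2 ratio of 1.03 in the others. Klf2, the flow-responsive endothelial factor, was at 0.986 and 2.43, and Cst3, Ly6e, Fth1, Serpina1a, Ifitm2 and H2-Q7 likewise had the larger value in the MKO pool in at least 12 of the 13 clusters, while Rps27a, a ribosomal protein gene, was at 0.694 and 2.26. These differences were not particular to vascular endothelium.
Antigen presentation genes as a list summed to 25.4 and 38.0, with 16 of 18 members larger in the MKO pool. Of 4 compared, 1 was past 2-fold higher, beside 2.74% of all genes compared. H2-K1 was at 10.5 and 13.1, B2m at 5.67 and 7.31, and Cd74, the class II invariant chain, at 0.266 and 1.62, below the level for comparison. Interferon-stimulated genes summed to 18.2 and 25.4, with 21 of 28 larger in the MKO pool and 0 of 5 compared past 2-fold. The nearest was Iigp1, an interferon-induced GTPase, at 2.19 and 4.46 (log2 ratio 0.97), and it was at 1.70 and 3.97 in cluster 4.

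The genes lower in the MKO pool included adhesion, guidance and matrix genes, most of which were higher in another cluster, and genes of hepatocytes. Lsamp, a neural adhesion molecule (chromosome 16, 39984361 to 42181679, + strand), was at 3.60 in control nuclei and 0.846 in MKO nuclei (log2 ratio -1.89), and at 6.66 and 7.77 in cluster 5. Slit2, a guidance and angiocrine ligand (chromosome 5, 47983138 to 48307733, + strand), was at 2.01 and 0.546 (-1.61), against 4.25 and 0.594 in cluster 6, and its paralogue Slit3, not past 2-fold, at 2.21 and 1.07. Adamtsl1, a matrix glycoprotein, was at 6.27 and 2.59, and at 17.0 and 16.1 in cluster 12. Of the lower genes, Col8a1, at 10.3 and 5.05, was the 1 leading gene of cluster 9.
Mrc1, the mannose receptor of sinusoidal endothelium and macrophages, was at 2.60 and 0.903 in cluster 9 but at 15.7 and 14.4 in cluster 4. Scd1, the stearoyl-CoA desaturase, was at 5.69 and 1.84, and Cadm1, an immunoglobulin-type adhesion molecule, at 2.28 and 0.78, with 23.9 and 14.6 in cluster 2. Other lower genes that did not peak in a hepatocyte cluster were Lars2, Sdk1, Samd5, Eps8, Ypel2, Slc43a2, Vps13c and Eepd1, with log2 ratios from -1.65 to -1.06.
Cyp3a25, Slc7a2, Dpyd, Slco1b2, Errfi1, Acsl1, Igfbp4 and Hibadh, which peak in hepatocyte clusters, were lower in cluster 9 and in most others: Cyp3a25 was at 3.88 and 1.297 in cluster 9, at 3.34 and 1.16 in cluster 4 and at 49.1 and 26.0 in cluster 0. Of 23 lower genes with an official-looking symbol, 8 had a negative ratio in at least 11 of the other 12 clusters. All 29 hepatocyte genes were above 0 in cluster 9 in both pools. Alb was at 37.5 and 46.7 there, and at 24.7 and 58.6 in hepatocyte cluster 0. RNA of hepatocyte genes was thus present in this cluster's means, and its source was not tested. The hepatocyte list summed to between 71.5 and 341 in the other clusters of the control pool and between 129 and 378 in the MKO pool.

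**Figure D4:**
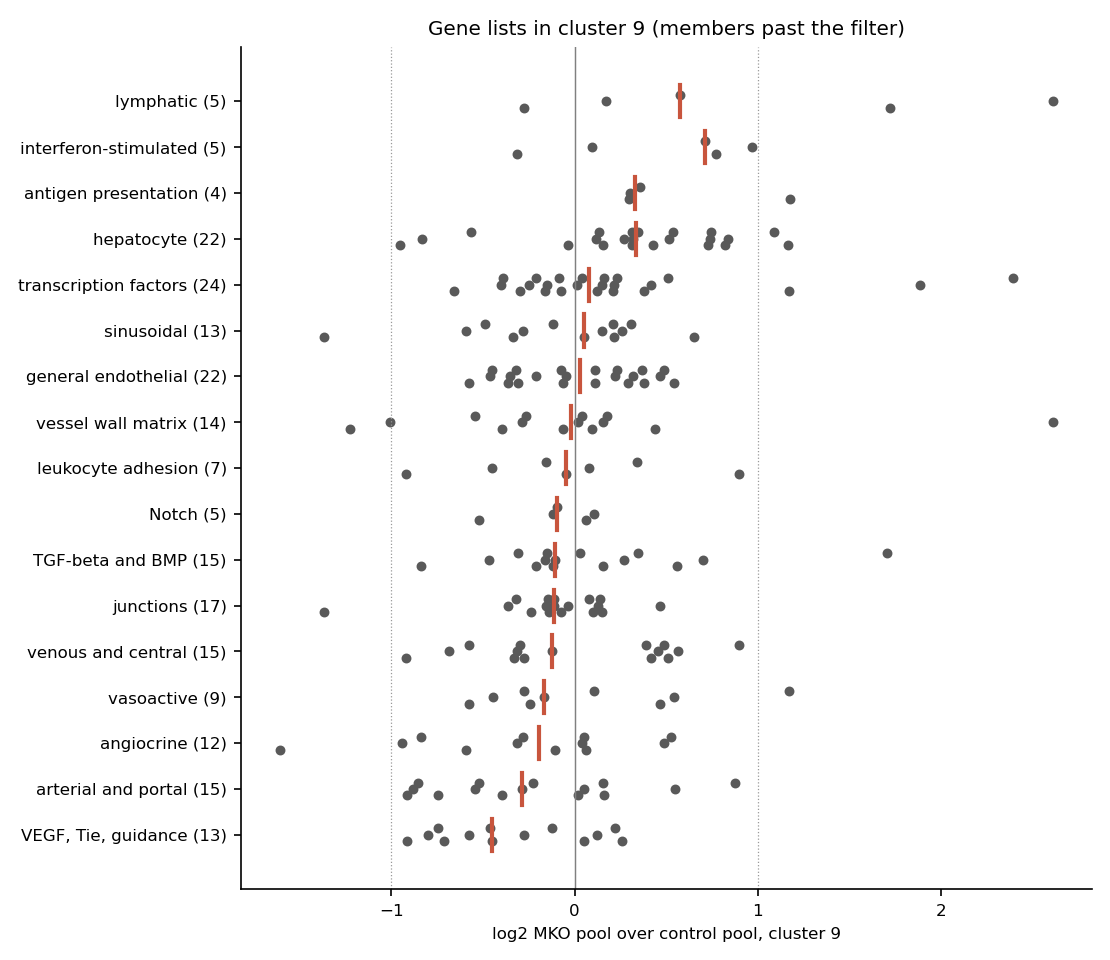
Log2 ratio of the MKO pool over the control pool in cluster 9 (horizontal) for the members of 17 gene lists that reached the level for comparison (rows, number of members in brackets); each grey point is a gene, the red bar the list's median, and the dotted lines mark 2-fold. The medians run from -0.45 for VEGF, Tie and guidance genes to 0.71 for interferon-stimulated genes, and no list has its median past 2-fold.

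Listed growth factor receptors and guidance genes of vessels did not pass the threshold between the pools. The guidance ligand Slit2, past 2-fold lower (log2 ratio -1.61), was not in this list. Of the 29 list members in the table, 13 had the larger value in the MKO pool and 13 in the control pool. The list of VEGF, Tie and guidance genes had a median log2 ratio of -0.45 over 13 members compared and 0 past 2-fold. Over all 1496 genes compared, 2.74% were past 2-fold higher and 1.74% lower. Counts of 0 or 1 in the short lists here and below cannot be told apart from those shares. Nrp1, a co-receptor of VEGF, was at 10.2 and 5.34, Plxnd1, a semaphorin receptor, at 3.45 and 1.91, and Robo1, a Slit receptor, at 4.46 and 2.66. Flt1, a VEGF receptor, was at 7.04 and 8.22 and Kdr, the main VEGF receptor, at 2.04 and 2.48. Robo1 and Nrp1 were higher in cluster 4 than in cluster 9 in both pools.
Junction genes had 1 of 17 compared past 2-fold (Cadm1) and haemostasis genes 1 of 7 (Mmrn1, already counted). F8, coagulation factor VIII, was at 13.3 and 10.6, and Calcrl, the receptor subunit for adrenomedullin, at 13.3 and 18.5. Notch genes had 0 of 5 past 2-fold, with Notch1 at 1.77 and 1.92. Plvap, the diaphragm protein of capillary endothelium, was at 1.13 and 2.31 (log2 ratio 0.93), and lipid uptake genes had 0 of 4 past 2-fold, with Cd36, a fatty acid translocase, at 7.09 and 4.53.

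The receptor deleted in myeloid cells was low in both pools of this cluster. Tgfbr1, the type I receptor for TGF-beta (chromosome 4, 47353222 to 47414931, + strand), was at 0.699 in control nuclei and 0.724 in MKO nuclei, under the level for comparison. In macrophage cluster 2 it was at 13.5 and 4.87. Its partner Tgfbr2, the type II receptor, was at 2.69 and 2.75, and Tgfbr3, the co-receptor betaglycan, at 2.72 and 2.42.
Eng, the endothelial co-receptor endoglin, was at 9.31 and 7.50, Bmpr2, the type II BMP receptor, at 9.90 and 7.11, and Acvr1, a type I receptor, at 2.43 and 2.17. Acvrl1, the endothelial receptor for BMP9, was at 0.259 and 0.457, Acvr1b at 0.638 and 0.166, Acvr2a at 1.15 and 1.04, Acvr2b at 0.252 and 0.131, and Bmpr1a at 0.179 and 0.231. Bmpr1b was listed at 0 in both pools.
Among the ligands, Bmp4 was at 2.64 and 1.40, Bmp6 at 3.71 and 3.44 and Tgfb1 at 0.574 and 0.743. Of the inhibitory Smads, Smad6 was at 8.02 and 7.39 and Smad7 at 3.18 and 4.77, and Smurf2, a ubiquitin ligase of the receptors, was at 2.39 and 3.997. Of 45 genes of the TGF-beta and BMP family in the table, 15 could be compared. Among these, 1 was past 2-fold higher and 0 lower, beside 2.74% and 1.74% of all genes compared. That gene was Id1, a target of BMP signals, at 0.406 and 1.71 (log2 ratio 1.71). Id1 reached the level for comparison through the MKO pool alone, and only narrowly. Whether BMP signals had a part in its value was not tested. Its relative Id3 was at 2.92 and 3.76, and Id2 at 1.31 and 1.48.

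Hepatocytes apart, the gene lists of other cell types summed to less in cluster 9 than in the cluster that carried them most. Whether RNA of those cells contributed was not tested. Plasmacytoid dendritic genes summed to 13.7 and 13.8, against 247 and 192 in cluster 11. Macrophage genes summed to 1.62 and 3.74 in cluster 9, against 93.5 and 119 in cluster 2, and 0 of 20 reached the level for comparison. Cd163 was at 0 in both pools. Smooth muscle genes summed to 8.71 and 6.79, nearly all from Sorbs2 at 7.58 and 5.75, while Acta2, Cnn1, Lmod1 and Myocd were at 0 in both pools. Cholangiocyte genes summed to 2.62 and 3.71, of which Glis3 made 0.322 and 2.01. Of 16 mesothelial and fibroblast genes, 8 were at 0 in both pools, Wt1, Msln and Upk3b among them, and the sum of 14.6 and 14.1 came mostly from Eln, Gpm6a, Cd200 and Slit2. Dividing-cell genes summed to 0.756 and 1.16, with Mki67 and Top2a at 0 in both. Early response genes, which handling of tissue can induce, summed to 6.48 and 4.28, with Dusp1 at 1.99 and 1.07.

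In whole liver, the genes of vascular endothelium did not separate the genotypes at the threshold. Fewer cells of a type and less RNA per cell cannot be told apart in such samples. With limma on log2(value + 1), 452 of 15249 genes rose in MKO livers (2.96%) and 13 fell (0.0853%) at an adjusted p under 0.05. Of the 30 leading genes of cluster 9, 27 were measured, and 0 were called, beside 1 at an unadjusted p under 0.05; edgeR and DESeq2 called 0 as well. Their median log2 fold change was 0.17, beside -0.02 for all genes, and 19 of 27 were positive.
Vwf, the gene with the unadjusted p, was read at normalised counts of 139, 141 and 107 in the control livers and 181, 190 and 154 in the MKO livers. The groups did not overlap, and the log2 fold change was 0.44 ± 0.17 (SE, n = 3 each; limma adjusted p = 0.341). Rspo3 was read at 204, 223 and 212 and at 216, 216 and 198, a log2 fold change of -0.02 ± 0.13 (SE, n = 3 each; limma adjusted p = 0.976).
Col8a1, lower in the MKO nuclei, was read at 20.6, 16.8 and 20.7 in control and 22.0, 14.3 and 15.4 in MKO livers, which overlap (log2 fold change -0.18 ± 0.31, limma adjusted p = 0.881). Mecom was read at 5.43, 11.5 and 11.8 in control and 19.5, 12.2 and 3.85 in MKO livers, Cdh13 at 22.8, 17.8 and 19.7 and at 29.3, 23.5 and 18.3, and Jam2 at 307, 239 and 200 and at 229, 368 and 329. All 3 overlap between the genotypes, with log2 fold changes of 0.12, 0.21 and 0.31.
Mmrn1 was read at 8.69, 12.6 and 4.93 and at 8.54, 6.12 and 10.6, which overlap fully (log2 fold change 0.00 ± 0.47, limma adjusted p = 0.999). Of the 41 genes higher in the MKO nuclei of cluster 9, 35 were measured in whole liver and 2 rose (Klf2 and Gm20559). Of the 26 lower ones, 23 were measured, 0 fell, and Mrc1 rose.

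**Figure D5:**
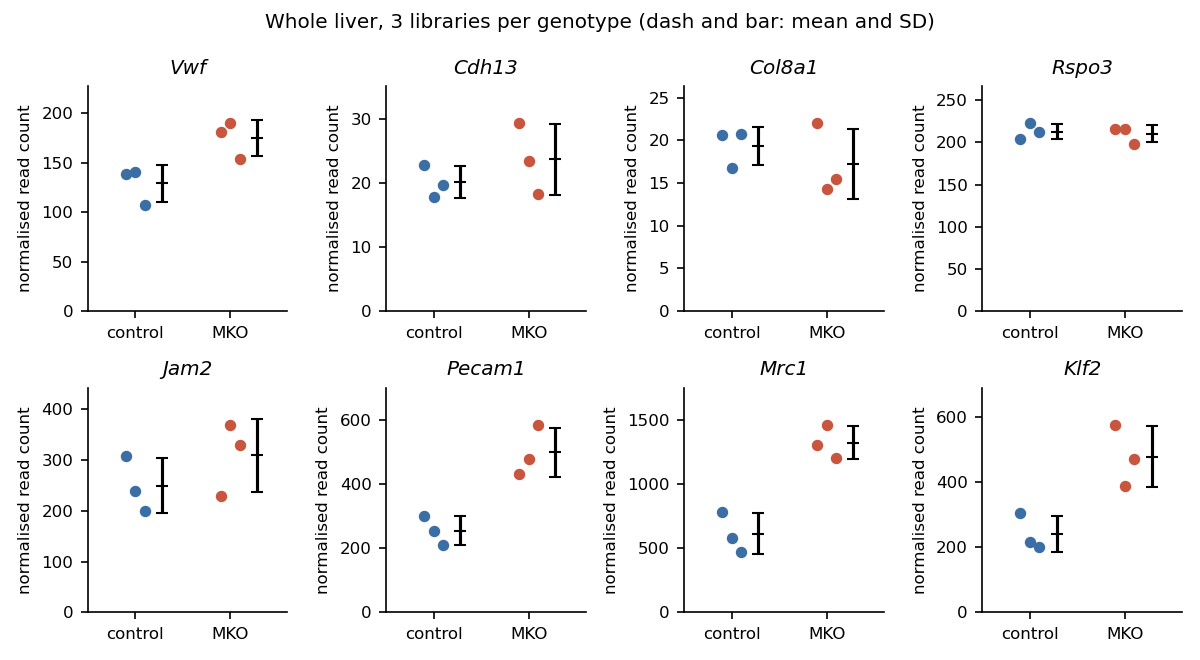
Normalised read count in whole liver (vertical axes, linear from 0) of 8 genes in 3 control and 3 MKO libraries (points), with a dash and bar for the mean and SD. Vwf, Pecam1, Mrc1 and Klf2 do not overlap between the genotypes, whereas Cdh13, Col8a1, Rspo3 and Jam2 do.

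Some endothelial genes that other cells carry too rose in whole liver, of which Pecam1, Klf2, Mrc1, Ptgs1 and Acvrl1 are given in full. Called list members also included Msr1 (sinusoidal, limma adjusted p = 0.0459), Itga9 (lymphatic, 0.0472) and Tgfb1 (TGF-beta family, 0.0315). In all, 1 of 28 general endothelial, 2 of 27 sinusoidal, 1 of 24 venous and central, 1 of 9 lymphatic and 2 of 44 TGF-beta family genes were called. Over all genes tested, 2.96% were called higher, and counts of 1 or 2 in such lists cannot be told apart from that share. Lfng (Notch), Kcnj2 (vasoactive) and Zeb2 (mesenchymal transition) were called too, as were 9 of 30 interferon and 7 of 18 antigen presentation genes. Pecam1 was read at 300, 254 and 210 in control livers and at 432, 478 and 584 in MKO livers, with no overlap (log2 fold change 0.97 ± 0.17, limma adjusted p = 0.0202). In nuclei it was level in cluster 9 and in cluster 4 (5.13 and 5.49) but at 1.154 and 8.36 in macrophage cluster 2. Of the 20 macrophage genes, 19 had a positive log2 fold change in whole liver and 13 were called higher, beside 2.96% of all genes tested. The median of the 20 was 1.56 and the lowest -0.44. Their part in the Pecam1 value was not tested.
Klf2 was read at 304, 216 and 201 in control livers and 576, 389 and 471 in MKO livers, again without overlap (log2 fold change 0.995 ± 0.20, limma adjusted p = 0.0349). In nuclei it was higher in the MKO pool in all 13 clusters. Mrc1 was read at 786, 585 and 471 and at 1311, 1464 and 1205 (1.14 ± 0.18, adjusted p = 0.0131), against the lower value in the MKO pool of cluster 9. Ptgs1, a prostaglandin synthase of platelets, macrophages and veins, was read at 205, 165 and 136 and at 308, 322 and 287 (0.87 ± 0.17, adjusted p = 0.0308), with 2.75 and 1.79 in cluster 9. Acvrl1 was read at 96.6, 69.3 and 57.2 and at 179, 182 and 162 (1.25 ± 0.21, adjusted p = 0.0165).
All 5 calls given in full were lost in at least 2 of the 6 fits that left out 1 library. Each was lost without control 2 or MKO 2. Further losses came without control 3 for Pecam1, Klf2 and Ptgs1, without MKO 1 for Klf2, Ptgs1 and Acvrl1, and without MKO 3 for all but Mrc1. The adjusted p then reached at most 0.0858 for Pecam1, 0.144 for Klf2, 0.0699 for Mrc1, 0.135 for Ptgs1 and 0.0866 for Acvrl1. Wnt9b was read at 29.3, 22.0 and 24.6 in control livers and 45.2, 51.0 and 50.1 in MKO livers. These groups did not overlap, but the adjusted p missed the threshold (log2 fold change 0.92 ± 0.24, limma adjusted p = 0.0937; 0.115 with edgeR, 0.133 with DESeq2, and 0.130 to 0.295 when 1 library was left out). Vcam1 was read at 299, 232 and 198 and at 330, 479 and 565 (0.90 ± 0.23, limma adjusted p = 0.0893), and DESeq2 on recovered reads gave an adjusted p of 0.00514; leaving out 1 library gave limma values from 0.0273 to 0.283. It was larger in the MKO pool in 12 of the 13 clusters of nuclei.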

How the data were processed

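Whole-liver RNA (3 libraries per genotype) and nuclei (1 pool of 3 livers per genotype) were measured. The submitters' processing notes name Seurat 4.0.1, Cell Ranger, DESeq2, RSEM 1.3.3, STAR and FastQC, and the build mm10. For the roles and settings of these tools, cluster names, numbers of nuclei, filters and doublet removal: not given in the sources used here. For nuclei, the authors deposited a signal, 1 mean per gene, cluster and pool in columns that sum to 10000. Depth is therefore unknown and no interval was given. For whole liver they deposited normalised values, a signal that equals counts divided by 1 size factor per library; whole reads were recovered for 100% of values (tolerance 0.01), 17448117 to 23986319 per library. The authors' deposited log2 fold changes and p-values were not used.

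Nuclei were compared as log2(value + pseudocount), with a pseudocount of 1/10 of the 90th percentile filter. Whole liver was tested with limma 3.58.1 (limma-trend, R 4.3.3) on log2(value + 1), over genes with a mean of at least 1, with Benjamini-Hochberg adjustment; fold changes of low genes are understated. Recovered reads were tested with edgeR 4.0.16 and DESeq2 1.42.0 as alternatives. The labels number the libraries but do not say that they came from separate animals, and p-values therefore reflect only how these samples vary, which may be technical. Reads of near-identical H2, Ly6 and Serpina1 genes may be split uncertainly. Both steps were tested on simulated data. The simulated nuclei held no noise, so that check covers the calculation alone and not false calls at low values. Coordinates come from GENCODE vM21 (GRCm38).

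The cluster, its markers, the 31 gene lists and the rules were chosen with earlier results of these data known. Genes were named by rule: the markers, 30 leading genes, the 15 highest and 15 lowest ratios between pools, the 12 highest and 12 lowest against cluster 4, up to 6 members of each list with the highest mean, and every TGF-beta family receptor; other genes named were chosen after their values were seen, to show list members at or below the filter.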

Additional observations from a re-analysis of the deposited data

How the results depend on the processing

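The counts of nuclei depended mainly on the filter on low values. At the 80th percentile, 136 genes of cluster 9 were higher and 88 lower in the MKO pool; at the 95th percentile, 11 were higher and 10 lower, since fewer low genes are compared. Against cluster 4, the 80th percentile gave 256 genes higher in cluster 9 in both pools, and the 95th gave 94 higher in cluster 9 and 99 in cluster 4. Other pseudocounts, median centring and rescaling without hepatocyte genes kept every such count within 1.5 times. Of 60 named genes, 31 of them past 2-fold, 1 was no longer past 2-fold in each of 3 settings (the 95th percentile, a pseudocount of 1/5 of the filter, median centring), and 20 were not compared at the 95th percentile. Ranking over the highest other cluster kept 23 of the 30 leading genes. In whole liver, the genes called higher ranged from 175 to 410 and the genes called lower from 5 to 31 when 1 library was left out, with 238 higher without control 2, 175 without MKO 2 and 181 without MKO 3. DESeq2 called 50 lower. Library numbers did not pair the samples (correlations of deviations 0.056, -0.03 and -0.109 for numbers 1, 2 and 3), and a fit with the replicate block called 391 genes higher and 17 lower. No alternative called any of the 27 leading genes measured in whole liver. Depth is unknown for nuclei, and without a second pool per genotype no difference between the pools can be tested.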

Other observations

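Angiocrine genes, by which vessels signal to other cells, had the larger value in the MKO pool of cluster 9 in 12 of 31 cases (38.7%, beside 52.5% of all genes above 0 in either pool). Of 12 compared, 1 was past 2-fold (Slit2, lower), beside 1.74% lower of all genes compared. Kitl, the ligand of the KIT receptor, was at 2.96 and 2.40, Pdgfd, a platelet-derived growth factor, at 2.63 and 3.86, and Wnt2, a Wnt of central and sinusoidal endothelium, at 1.13 and 1.24. The transcription factors of endothelium had 3 of 24 compared past 2-fold higher (Ebf1, Foxp2 and Klf2, beside 2.74% of all genes compared) and 0 lower. These 3 reached the level for comparison through the MKO pool alone. Ebf1 peaks in cluster 8 at 71.6 and 64.1, Foxp2 was highest in hepatocyte cluster 3 in the control pool (6.66), and Klf2 was higher in the MKO pool in all 13 clusters. In the same list, Foxp1 was at 24.7 and 20.8 and Meis2 at 24.6 and 22.2. Genes of endothelial to mesenchymal transition had 0 of 5 past 2-fold, and Acta2 was at 0 in both pools, with Snai1 at 0.104 and 0.0409.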
